A study of Mus musculus with 6 samples.

Results

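Interferon-stimulated genes were followed in RAW264.7 cells, a mouse macrophage line, through 6 genes named in the deposited table: Isg15, Rsad2, Ifit1, Oasl1, Rtp4 and Cxcl10. They are 6 of the 345 genes that the table lists, and they were chosen by name. The Control group holds 3 libraries of untreated cells. The G scaffold group holds 3 libraries of cells kept for 48 h in a 5-fold diluted extract of a Zn-0.8Li gyroid (G) scaffold, a zinc-lithium lattice that releases its metals as it degrades. Both groups are the same line, and no label says whether the libraries came from separate cultures, so p-values measure the spread between these libraries, which may be technical.

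Interferons are secreted proteins that cells release on sensing a virus or other danger. Type I interferon binds its receptor and activates transcription factors that bind a short DNA element, the interferon-stimulated response element, in the promoters of their target genes. Macrophages both make and answer interferon, and several of these targets can also be switched on directly by IRF3 or NF-kappaB.

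Promoter stretches are shown first for the members in which that element was found. The search used GAAA, any 2 bases and GAAA on both strands, over 250 bases before to 50 bases after each RefSeq start (GRCm38.p6). Promoters of 5 of the 6 genes were matched, and the promoter of Rtp4 was not. The element was found in 4 of these 5 windows, in 3.44% of all 32851 promoters of this length, and in 15 of the 223 listed genes with a promoter (6.73%). These 15 include the 4 members. Here and below, the first share counts promoters, while the second counts a gene once if any of its promoters matched. The stretches below run 5′ to 3′ on the strand of each gene, and capitals mark the bases matched. They lie at chr4:156200835-156200926 (minus strand, Isg15), chr12:26456523-26456602 (minus strand, Rsad2), chr19:34640755-34640853 (plus strand, Ifit1) and chr5:92349053-92349132 (minus strand, Cxcl10).
Isg15: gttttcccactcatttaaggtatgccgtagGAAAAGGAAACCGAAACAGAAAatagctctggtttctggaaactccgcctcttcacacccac
Rsad2: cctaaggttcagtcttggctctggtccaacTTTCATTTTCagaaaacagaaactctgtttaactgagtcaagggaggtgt
Ifit1: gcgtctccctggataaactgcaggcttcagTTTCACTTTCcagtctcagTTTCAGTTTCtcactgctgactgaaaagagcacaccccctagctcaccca
Cxcl10: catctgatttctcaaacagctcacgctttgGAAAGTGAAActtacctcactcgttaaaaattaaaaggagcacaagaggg

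The Isg15 stretch holds 3 matches that overlap each other, from 78 to 57 bases upstream of the start. Ifit1 holds 2 separate matches, at 104 to 95 and 85 to 76 bases upstream, both on the other strand, so the capitals read TTTC. Rsad2 holds 1 match on the other strand, at 120 to 111 bases upstream. Cxcl10 holds 1 match on its own strand, at 213 to 204 bases upstream. Oasl1 held no match in this window.

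The same windows were searched for the kappaB motif and the metal response element. The kappaB motif, bound by NF-kappaB, was found in Cxcl10 and Oasl1 (2 of 5), against 8.46% of all promoters and 17.9% of the listed genes with a promoter. Its matches overlap each other, at 104 to 94 bases upstream of Cxcl10, where a separate match lies at 159 to 150, and at 14 to 4 bases upstream of Oasl1. The core of the metal response element (TGCACNC or TGCGCNC), which the zinc sensor MTF1 binds, was found in 0 of 5 windows, in 25.7% of all promoters and in 34.5% of the listed genes with a promoter. A match is a run of letters and not a measured binding site. These are sequences of the C57BL/6J reference, while 329 of the 345 listed genes carry identifiers of the SPRET/EiJ annotation.

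**Figure D1:**
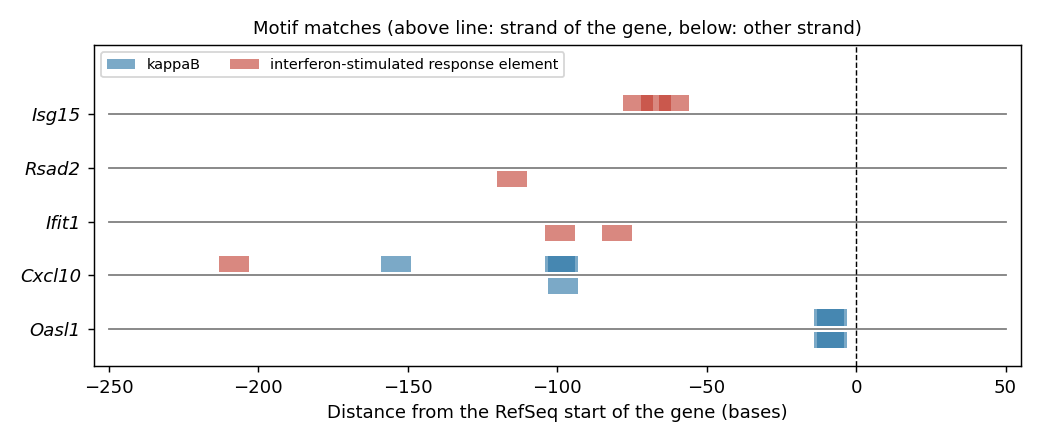
Positions of the motif matches in the promoters of the 5 matched genes, with the distance from the RefSeq start in bases on the x axis and 1 row per gene, matches on the strand of the gene above the line and on the other strand below it. The interferon-stimulated response element is seen in Isg15, Rsad2, Ifit1 and Cxcl10, and the kappaB motif in Cxcl10 and Oasl1.

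With the deposited scaling, the level of all 6 genes was higher in G scaffold than in Control, by 2.83-fold in Rtp4, 2.98-fold in Oasl1, 5.27-fold in Cxcl10 and 8.54-fold in Ifit1 between group means. In Isg15 and Rsad2, whose Control levels rest on 6 and 4 reads, the size of the change is less certain and their order is not determined. Values are normalized counts, which are reads divided by a size factor of each library. The difference was tested by limma on log2(normalized count + 1), so the log2 change understates the change of low genes, and a gene was called at a Benjamini-Hochberg adjusted p of at most 0.05 and a log2 change of at least 1. Of the 6 members, 6 were called higher, beside 82.6% of the 345 listed genes. In 6 of 6, every G scaffold library lay above every Control library, which 82.9% of the listed genes also did. The table holds genes that had already passed the study's own test on these libraries, so neither count sets the members apart from the rest, and the test is not independent evidence. The median log2 change was 2.53 over the members and 1.87 over the listed genes. Genes of at most 3 reads in every Control library (99 genes), or in every G scaffold library, were then put at a bound against 3 reads, with no 1 added. These medians were then 2.53 and 1.46. Of the members only Rsad2 was changed by this, from 3.94 to 3.32. Both values lie above 2.53, so the members' median could not move, and the wider gap does not set the members apart.

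The ubiquitin-like members come first. Isg15, a ubiquitin-like protein that is joined to other proteins during the antiviral response (MGP_SPRETEiJ_G0027917, chromosome 4:152877509-152878880 in the table's coordinates), had normalized counts of 0.994, 4.33 and 0.955 in Control 1 to 3. In G scaffold 1 to 3 they were 68.6, 54.0 and 47.0. The groups stood far apart, and the lowest G scaffold library was 10.9 times the highest Control library. The mean went from 2.09 ± 1.94 to 56.5 ± 11.0 (SD, n = 3 each), a log2 change of 4.37 ± 0.423 (SE, limma, Benjamini-Hochberg adjusted p = 0.00013). The Control level rests on 6 reads in all against 172 in G scaffold, and 4 of the 6 were in Control 2. The ratio of the group means was 27.0, and 58.0 without Control 2. Their ratio per library size was 28.0, with an exact 95% interval of 12.6 to 77.3 that covers counting error only.

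Oasl1, an OAS-like protein with ubiquitin-like domains that binds double-stranded RNA (MGP_SPRETEiJ_G0028607, chromosome 5:113699722-113715208), had the highest counts of the 6. Its normalized counts were 217, 267 and 245 in Control and 750.0, 722 and 699 in G scaffold. The 3 G scaffold libraries lay close together, at a coefficient of variation of 3.53%, against 10.5% in Control. Counting alone gives 3.69% and 6.45%. The mean rose 2.98-fold, from 243 ± 25.4 to 724 ± 25.6 (SD, n = 3 each), with a log2 change of 1.58 ± 0.136 (SE, limma, Benjamini-Hochberg adjusted p = 8.8e-05). With 721 and 2206 reads behind it, this is the most precisely counted of the members. The table's family column gives ubiquitin for Isg15 and Oasl1, and for no other of the 170 rows that carry an entry in it.

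The antiviral effectors Rsad2 and Ifit1 were low in Control. Rsad2 encodes viperin, a radical SAM enzyme that makes a chain terminator of viral RNA (MGP_SPRETEiJ_G0018495, chromosome 12:18361377-18375012). Its normalized counts were 0, 1.08 and 2.87 in Control and 33.3, 23.2 and 34.3 in G scaffold. No Control library held more than 3 reads, so the change is given as a bound: against a floor of 3 reads per library, Rsad2 was at least 9.97-fold higher in G scaffold. The means were 1.32 ± 1.45 and 30.2 ± 6.15 (SD, n = 3 each; limma, Benjamini-Hochberg adjusted p = 0.00037).

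Ifit1, which binds viral RNA whose cap lacks the host's methyl mark and blocks its translation (MGP_SPRETEiJ_G0023816, chromosome 19:31817487-31826978), had normalized counts of 4.97, 2.16 and 3.82 in Control. In G scaffold they were 30.2, 21.2 and 42.1. G scaffold 3 was the highest and G scaffold 2 the lowest of its group, and the groups did not overlap. The mean rose 8.54-fold, from 3.65 ± 1.41 to 31.2 ± 10.5 (SD, n = 3 each), with a log2 change of 2.79 ± 0.333 (SE, limma, Benjamini-Hochberg adjusted p = 0.00031). These values rest on 11 and 95 reads, a ratio of 8.43 with an exact 95% counting interval of 4.5 to 17.5.

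Rtp4, a receptor-transporting protein that interferon induces (MGP_SPRETEiJ_G0021515, chromosome 16:20732042-20737324), had normalized counts of 12.9, 22.7 and 17.2 in Control and 50.4, 46.3 and 52.9 in G scaffold. The lowest G scaffold library was 2.04 times the highest Control library. The G scaffold libraries had a coefficient of variation of 6.64%, where counting alone gives 14.0%, so their closeness is not a measure of precision. The values rest on 52 and 152 reads, a ratio of 2.85 with an exact 95% counting interval of 2.07 to 3.99. The mean rose 2.83-fold, from 17.6 ± 4.92 to 49.9 ± 3.31 (SD, n = 3 each), with a log2 change of 1.48 ± 0.218 (SE, limma, Benjamini-Hochberg adjusted p = 0.0007). Its 95% interval, 0.95 to 2.01, reaches below the log2 change of 1 used for a call.

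Cxcl10 is the secreted member, a chemokine that draws activated T cells and NK cells (MGP_SPRETEiJ_G0028413, chromosome 5:91644919-91647173). Its normalized counts were 12.9, 7.57 and 7.64 in Control and 63.5, 35.7 and 48.9 in G scaffold. Replicate 1 was the highest library of both groups, and the groups did not overlap. The mean rose 5.27-fold, from 9.38 ± 3.07 to 49.4 ± 13.9 (SD, n = 3 each), with a log2 change of 2.28 ± 0.291 (SE, limma, Benjamini-Hochberg adjusted p = 0.00041).

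**Figure D2:**
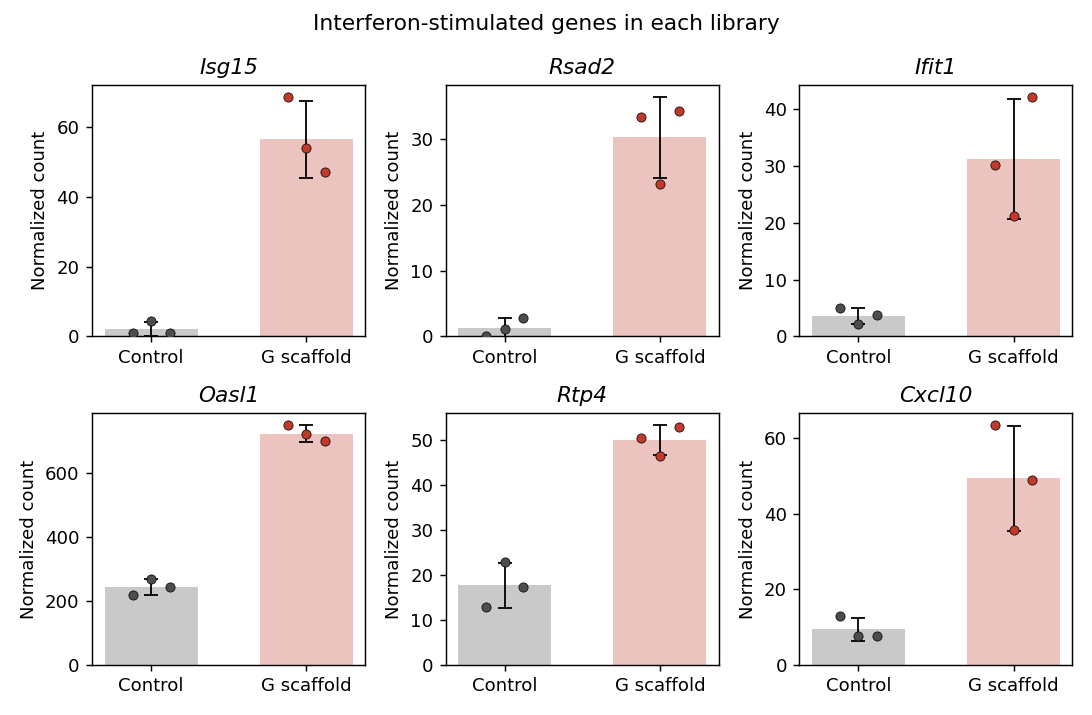
Normalized counts of the 6 members, 1 panel per gene with its own linear axis from 0, with points for the 3 libraries of each group, bars for the group means and error bars for the SD. In each panel the 3 G scaffold points lie above the 3 Control points, from 699 to 750.0 against 217 to 267 in Oasl1 and from 47.0 to 68.6 against 0.955 to 4.33 in Isg15.

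The order of the members changed between the groups. Levels of different genes are compared per kilobase of the table's gene length. In Control, Oasl1 stood at 92.8 ± 9.7 normalized counts per kilobase and Rtp4 at 11.1 ± 3.11, and these did not overlap each other or any other member. Below them came Cxcl10 at 4.16 ± 1.36, Isg15 at 2.78 ± 2.57 and Ifit1 at 1.38 ± 0.533 per kilobase, where each overlapped its neighbour in the order. Rsad2 was the lowest, at 0.305 ± 0.336 per kilobase.

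In G scaffold, Oasl1 again stood first, at 277 ± 9.77 normalized counts per kilobase. Isg15 came next, at 75.0 ± 14.6 per kilobase, above Rtp4 at 31.5 ± 2.09 with no overlap. Cxcl10 at 21.9 ± 6.17 and Ifit1 at 11.8 ± 3.96 per kilobase overlapped, and Rsad2 stayed the lowest at 7.01 ± 1.42 (SD, n = 3 for each of these levels). Isg15 thus moved from the middle of the order, where it overlapped Cxcl10 and Ifit1, to the second place.

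**Figure D3:**
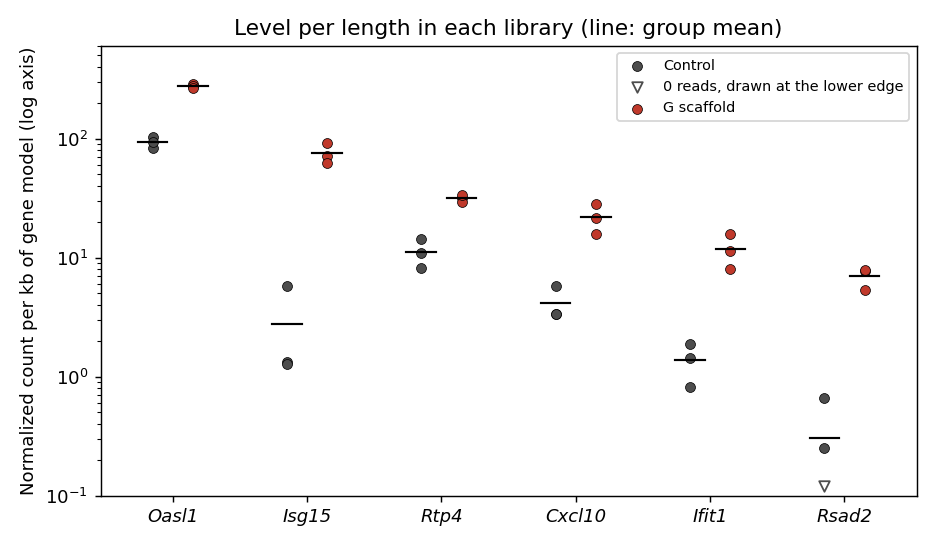
Level of each member in normalized counts per kilobase of gene length on a log axis, with points for the 3 libraries of Control and of G scaffold, lines for the group means and an open triangle at the lower edge for the Control library of Rsad2 with 0 reads. Isg15 goes from a mean of 2.78 in Control, where it overlaps Cxcl10, to 75.0 in G scaffold and passes Rtp4, while Oasl1 stays first and Rsad2 last.

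Summed over the 6 members, the normalized counts were 248, 305 and 277 in Control and 996, 902 and 924 in G scaffold. Oasl1 made up 87.2%, 87.6% and 88.3% of this sum in Control and 75.3%, 80.0% and 75.6% in G scaffold. Without Oasl1 the sums were 31.8, 37.9 and 32.5 in Control and 246, 180 and 225 in G scaffold. In bulk samples such as these, a change in the number of cells that express a gene and a change in RNA per cell cannot be told apart.

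The members were also compared with each other inside each library. The log2 ratio of a pair of members within a library does not depend on the size factor, apart from the pseudocount of 1. For 9 of the 15 pairs (60.0%) this ratio did not overlap between the groups, beside 66.9% of the 59340 pairs of listed genes, a share among members that is not above that of the table. The ratio of Isg15 to Oasl1 went from a mean of -6.47 in Control to -3.67 in G scaffold, and that of Isg15 to Rtp4 from -2.73 to 0.16. The difference between groups in the ratio of Rsad2 to Oasl1 was 2.37, and 3.83 or 0.28 with a pseudocount of 0.1 or 10. For Ifit1 to Oasl1 it was 1.21, and 1.5 or 0.03 with these pseudocounts. Both pairs overlapped at a pseudocount of 10, so the size of these differences is not fixed by the data. For Isg15 to Oasl1 the difference was 2.79, and 3.44 or 0.92, with no overlap at any of the 3 pseudocounts.

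The ratio of Oasl1 to Rtp4 overlapped between the groups. Its log2 value had a mean of 3.74 in Control, from 3.50 to 3.97 over the libraries, and of 3.83 in G scaffold, from 3.70 to 3.93 (exact permutation test, two-sided, p = 0.7). The ratio of Isg15 to Rsad2 differed by 0.43 and overlapped between the groups (exact permutation test, two-sided, p = 0.8), and its sign turned with the pseudocount, to -0.38 at 0.1 against 0.63 at 10. With 3 libraries against 3 the exact test cannot go below p = 0.1, or 0.167 after Benjamini-Hochberg adjustment over the 15 pairs, so no pair could pass 0.05.

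**Figure D4:**
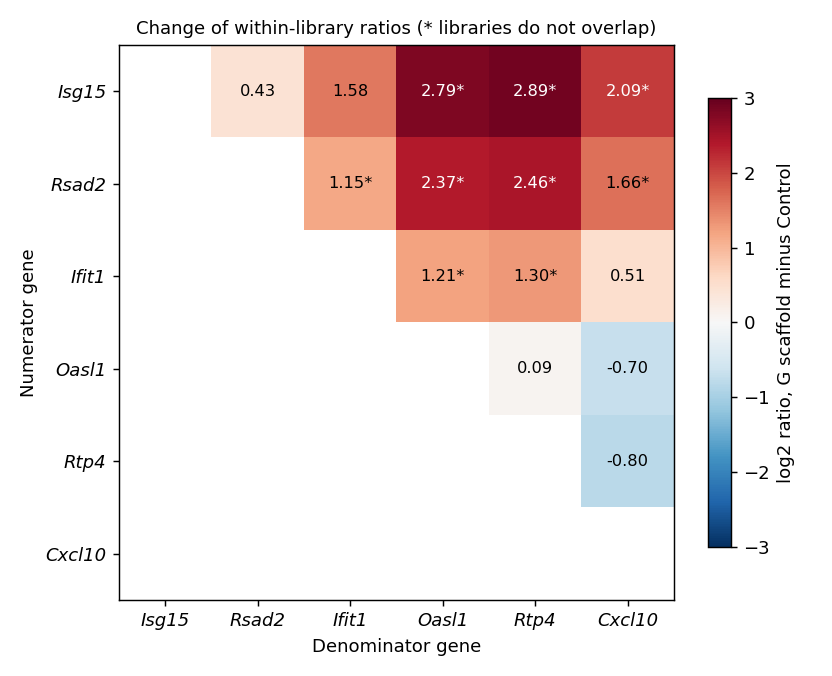
Difference between groups in the within-library log2 ratio of each pair of members, row gene over column gene, G scaffold minus Control, in log2 units at a pseudocount of 1, as colour and number, with an asterisk where the libraries of the groups do not overlap. The values were 2.79 for Isg15 over Oasl1, 2.89 for Isg15 over Rtp4 and 0.09 for Oasl1 over Rtp4; the 0.43 of Isg15 over Rsad2 changes sign with a pseudocount of 0.1.

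The scaling decides how large the change of each member is, so it was varied. With TMM factors taken over the listed genes, the median change of the listed genes shifted by -1.39 to 0.48. Under that scaling Isg15 had a log2 change of 3.16, Rsad2 2.90 and Ifit1 1.47, and these 3 were called higher, beside 38.8% of the listed genes under that scaling. Cxcl10 had 0.88 (limma, Benjamini-Hochberg adjusted p = 0.039), under the log2 change of 1 for a call, while Oasl1 had 0.09 (adjusted p = 0.56) and Rtp4 0.05 (adjusted p = 0.85). With column totals of the listed genes, the median shifted by -0.60, Cxcl10 had 1.67, Oasl1 0.93 and Rtp4 0.86, and 4 members were called higher, beside 55.4% of the listed genes. No member changed direction. Both scalings were computed from a table in which 285 genes were called higher and 55 lower. TMM takes most genes to be unchanged, which does not hold in such a table. The true scaling cannot be found from these genes alone.

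**Figure D5:**
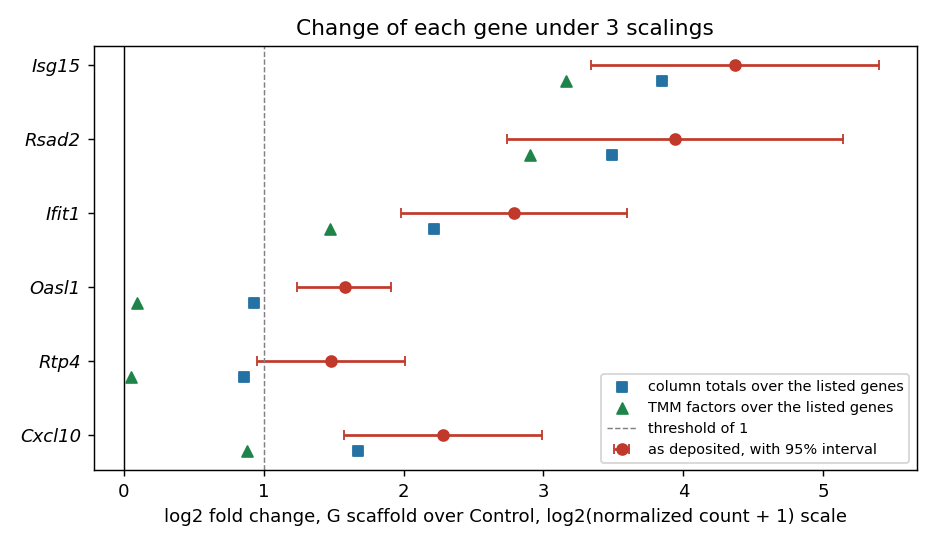
log2 change of each member, G scaffold minus Control, on the log2(normalized count + 1) scale (x axis), as deposited with 95% intervals from limma (circles), with column totals (squares) and with TMM factors (triangles); the dashed line marks the threshold of 1. Every value lies above 0, Isg15, Rsad2 and Ifit1 stay past the threshold under the 3 scalings, Oasl1 and Rtp4 fall under it with both others and Cxcl10 with TMM factors; the value of Rsad2 depends on the pseudocount.

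Relative to the median of the listed genes the order was the same under each scaling. A scaling shifts all genes of a library alike, so this had to hold apart from the pseudocount. Isg15 lay 2.50 above it as deposited, 2.68 with TMM factors and 2.59 with column totals, on the log2 scale. Rsad2 lay 2.08, 2.42 and 2.23 above it by its fitted values, and Ifit1 0.92, 1.0 and 0.95. Cxcl10 lay 0.42, 0.40 and 0.40 above it. Oasl1 had values of -0.29, -0.38 and -0.34 against this median, and Rtp4 values of -0.38, -0.43 and -0.41.

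The rest of the interferon pathway was looked for in a list of 133 further genes, grouped by role. None of the 21 interferon and related ligands or the 18 receptors and signal transducers was a row of the table. Neither was any of the 22 nucleic acid sensors and their adaptors or the 15 paralogs of the members. The 6 genes of Isg15 conjugation, a list kept apart from the 133, were not rows either. The table lists genes that passed the study's thresholds and 33 of its rows carry no name, so the levels of these genes were not analysed here. Of the 133, 2 were listed and both were called higher, which reads no differently from the 82.6% of all listed genes.

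Ccl5, a chemokine for T cells and monocytes that interferon and NF-kappaB both induce, was among the 61 other effectors. Its normalized counts were 4.97, 8.66 and 6.69 in Control and 114, 103 and 130.2 in G scaffold, with no overlap. The mean went from 6.77 ± 1.85 to 116 ± 13.6 (SD, n = 3 each), a log2 change of 3.93 (limma, Benjamini-Hochberg adjusted p = 1.4e-05), and 2.53 with TMM factors. Cish, a feedback inhibitor of cytokine receptors, was the listed gene of the 8 feedback inhibitors. It had 0.994, 0 and 0 in Control and 12.1, 1.93 and 16.6 in G scaffold. The G scaffold mean was at least 3.37-fold higher against the floor of 3 reads per library (limma, Benjamini-Hochberg adjusted p = 0.0078). G scaffold 2 itself lay under that floor, so the bound does not hold for that library.

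Other programs moved with the members, and their part in the result was not tested. Of 18 NF-kappaB target genes, 5 were listed and all 5 were called higher, from a log2 change of 1.10 in Ccl3 to 3.93 in Ccl5, beside the 82.6% of all listed genes. With TMM factors 2 of the 5 were called higher, Ccl5 and Cxcl2, while Ccl4 had 0.43, Ptgs2 0.78 and Ccl3 turned to -0.38. All 3 genes of the zinc response were listed and called higher, with log2 changes of 3.10 in Mt1, 3.97 in Mt2 and 1.10 in the zinc exporter Slc30a1, which turned to -0.38 with TMM factors. Of 11 macrophage markers, 1 was listed: Mpeg1, a pore-forming protein of phagocytes, with a log2 change of -1.03. The other markers are not rows of the table, so the labelled cell type could not be checked.

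Markers of other cell types were listed as well. Of 7 markers of plasmacytoid dendritic cells, which are known for strong interferon production, 1 was listed. This was Siglech, with 122, 108 and 91.7 in Control and 16.1, 19.3 and 28.4 in G scaffold, a log2 change of -2.31 (limma, Benjamini-Hochberg adjusted p = 0.00018). Of 10 markers of fibroblasts and osteoblasts, 1 was listed: Col1a1 was at 0 in the 3 Control libraries and at 8.06, 8.68 and 4.89 in G scaffold. None of 9 lymphocyte markers was listed.

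The genes whose profile lay nearest to each member were taken over the 6 libraries, as the Euclidean distance between log2(normalized count + 1) profiles centred on their means. For Isg15 this was Col5a3 at a distance of 0.407, and for Rsad2 it was Fam46c at 0.867. A small distance largely means a change of similar size between the groups, such as 4.37 in Isg15 and 4.56 in Col5a3. No Control library held more than 1 read of Col5a3 or 3 reads of Fam46c. Shared regulation was not tested. Adm lay nearest to Ifit1 at 0.686, and Serinc2 nearest to Cxcl10 at 0.599. Plaur was the nearest to both Oasl1, at 0.222, and Rtp4, at 0.318. Among the members themselves, Oasl1 and Rtp4 lay 0.39 apart, Ifit1 and Cxcl10 0.959, and Isg15 and Rsad2 1.94. In the table's coordinates the members lay apart from other listed genes: Samd11 was 47474 bases from Isg15, and the nearest listed gene to each of the others was at least 1238638 bases away.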

How the data were processed

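RNA of RAW264.7 cells was extracted with Trizol and made into libraries with a SMARTER mRNA-Seq kit. The submitters' processing notes name the builds GRCm38 and mm10, while the gene identifiers are mostly of SPRET/EiJ; the aligner and counter settings for each step are not given in the sources used here. The deposited table gives a normalized signal per gene and library, which the authors made by dividing read counts by size factors, and it lists 345 genes that passed their thresholds. Its fold changes, p-values and group means are the authors' own comparisons and were not used.

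Within each library 100% of the values were whole multiples of 1 read (tolerance 0.0001), with size factors of 0.924 to 1.05. Reads over the listed genes came to 88836 to 100895 in Control and 150056 to 156029 in G scaffold, which is not the depth of the libraries. Libraries of 1 group were not copies of each other (chi-square of their reads 2.13 to 7.93 per degree of freedom). Groups followed the labels. limma 3.58.1 (R 4.3.3) was fitted to log2(normalized count + 1) over all 345 genes, without a replicate block, with Benjamini-Hochberg adjustment. The fits were tested on simulated data with known size factors, unchanged genes and changes drawn alike in both directions. This does not check them on a table of preselected genes, most of them higher. Pair ratios were compared by exact permutation (scipy 1.17.1). Alternatives changed the scaling, pseudocount, filter, fold threshold and libraries. edgeR 4.0.16 and DESeq2 1.42.0 were run on recovered reads of replicates 2 and 3 of each group. RefSeq promoters were scanned for motifs, of which 1 is not reported here. Genes were named by a fixed rule: the 6 members, listed genes of the pathway and marker lists, and the nearest profiles. The members and lists were chosen with earlier results of these data known.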

Additional observations from a re-analysis of the deposited data

How the results depend on the processing

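The count of members called higher was 6 of 6 as reported, with a replicate block, without each replicate in turn (6 to 6), and in edgeR, DESeq2 and limma on replicates 2 and 3, which were chosen after seeing the data. Without 1 replicate, 276 to 283 of the 345 listed genes were called higher. The listed genes had passed the study's own test on these libraries, so these counts do not set the members apart. The count of members was 5 at a log2 change of at least 1.5, where the share of all listed genes was not computed. It was 4 with column totals and 3 with TMM factors, beside 55.4% and 38.8% of the listed genes. A filter of at least 10 in every library kept only 2 members for testing, Oasl1 and Rtp4, and both were called. A mean of at least 100 kept only 1, Oasl1, which was called. The other members were removed before the test, and the share among the listed genes that each filter kept was not computed. The other pathway genes called higher went from 2 to 1 with a pseudocount of 10, where Cish had a log2 change of 0.89, and to 0 with either filter, which removed both. The pairs with separate ratios went from 9 to 5 with a pseudocount of 10. Without 1 replicate they were 10 to 11, a count that cannot fall when a library is left out. The share over all pairs of listed genes was not computed for these settings. Of the log2 changes of single members, 82 values kept direction and call, 5 lost the call (Oasl1 and Rtp4 under both scalings, Cxcl10 with TMM factors) and 0 reversed. Without 1 replicate Isg15 ranged from 4.12 to 4.85 and Rsad2 from 3.44 to 4.42, and the highest adjusted p of any member was 0.0044 (limma, Benjamini-Hochberg).

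Over all listed genes, calls were 285 higher and 55 lower. They were 134 and 58 with TMM factors, where 69.8% of the called genes were higher, against 83.8% of the called genes as reported. Calls were 191 and 58 with column totals and 194 and 38 with a pseudocount of 10. The filter at 10 gave 115 and 41, and the filter at a mean of 100 gave 68 and 23. On replicates 2 and 3 they were 275 and 51 in edgeR, 249 and 49 in DESeq2 and 265 and 50 in limma. The replicate block gave 284 and 55. Same-numbered libraries did not deviate together over the listed genes (correlations 0.00467, -0.0347 and -0.0713). Of these genes, 99 had at most 3 reads in every Control library, so this cannot say whether same-numbered libraries were prepared together. edgeR and DESeq2 on all 6 libraries were not run, because 1 read is worth too nearly 1 in both replicates 1 for the recovered reads to be checked. Low Control counts limit the size of the change in Isg15 and Rsad2: the pseudocount moved Isg15 from 5.02 at 0.1 to 2.46 at 10, and Rsad2 from 5.40 to 1.83.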

Other observations

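A pair of listed genes outside the pathway list, chosen after their values were seen, also belong to interferon-related families. Ifi202b, of the interferon-inducible p200 family, had normalized counts of 15.9, 21.6 and 16.2 in Control and 47.4, 27.0 and 50.9 in G scaffold, a log2 change of 1.14 that turned to -0.29 with TMM factors. Trim38, a TRIM protein that regulates innate signalling, had 0, 1.08 and 1.91 in Control and 24.2, 8.68 and 10.8 in G scaffold, at least 4.8-fold higher against the floor of 3 reads per library.

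Besides the members, 11 listed genes held the interferon-stimulated response element in the promoter window. Of these, 9 were called higher, a share close to the 82.6% of all listed genes, among them Spp1, Vegfa and Clec4d, and 2 were called lower, Agmo and Ranbp3l.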
